A study of Homo sapiens with 6 samples.

Results

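Keratin genes were taken as the protein-coding genes whose symbol is KRT followed by a number and at most one letter, which leaves out keratin-associated proteins and pseudogenes. Of 64253 genes in the count tables, 55 met this rule, and another 12 genes with a symbol of this kind were left out because they are not annotated as protein coding. They divided into 28 type I genes, 26 type II genes and KRT222, which was placed in neither type. RNA was sequenced from PC-3 cells, a human prostate cancer cell line from a bone metastasis, carrying a short hairpin RNA against CdGAP (shCdGAP, 3 libraries) or a control short hairpin RNA (shCon, 3 libraries). CdGAP, the product of ARHGAP31, inactivates the small GTPases Rac1 and Cdc42, and the comparison asks which transcripts differ when it is depleted. Per the methods, puromycin selection of the depleted line went through clones grown from single cells. Whether the control line was cloned too is not given in the sources used here, so the effects of clone and of depletion cannot be told apart.

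Keratins are the intermediate filament proteins of epithelial cells. Each filament is built from pairs of one type I and one type II chain, and most type I genes lie together on chromosome 17 while the type II genes and KRT18 lie together on chromosome 12. Glandular cells carry the simple pair KRT8 and KRT18, often with KRT7 and KRT19, basal cells of the prostate and of stratified epithelia carry KRT5 and KRT14, and a separate set of keratins builds the hair shaft and its root sheaths.

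Library totals ranged from 33182796 to 43154039 counted reads. ARHGAP31 had 1072, 1181 and 926 reads in shCdGAP replicates 1 to 3 and 2472, 2557 and 1923 reads in shCon replicates 1 to 3. Every library thus matched its label in direction. The mean was 26.8 CPM (reads scaled to a common library size) in shCdGAP and 59.2 CPM in shCon, a log2 fold change of -1.14. Depletion in these libraries was therefore partial, and the paper reported a larger reduction of CdGAP mRNA for its depleted PC-3 clone. Replicate 2 of shCdGAP stood apart from its sister libraries. Among 16022 genes with enough reads, 521 (3.25%) were more than 1.5-fold higher in replicate 2 than in both sisters, which lay within 1.5-fold of each other, and 294 (1.83%) were lower, against at most 148 genes in either direction in shCdGAP replicates 1 and 3. Keratins were among the genes that set it apart, and keratin results that rest on it are given with and without it. Summed markers of leukocytes stayed at or under 0.275 CPM, the reads of a gene scaled to a common library size, in every library, and those of neuroendocrine cells at or under 1.45 CPM with CHGA and INSM1 at 0 reads. The 5 fibroblast markers summed to between 68.7 and 69.3 CPM in shCdGAP and between 19.0 and 20.3 CPM in shCon, with DCN at 5 reads or fewer in every library. Of them, 4 (COL1A1, COL3A1, LUM and PDGFRB) were tested and passed as higher, against 24.1% of all tested genes. PDGFRB had 4, 7 and 2 reads in shCon and entered the test through its shCdGAP reads (30, 52 and 39). LUM, with 11, 9 and 6 reads in shCon, likewise entered through its shCdGAP reads (72, 91 and 52). A difference was thus built into the selection of PDGFRB and LUM. The part of the fibroblast markers in the keratin results was not tested.

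Reads fell on 28 of the 55 keratin genes, 15 of type I and 13 of type II. With detection set at 10 reads over the 3 libraries of a group, 18 keratins were detected in shCdGAP and 14 in shCon. The difference was made by 4 type I hair keratins, KRT32, KRT34, KRT37 and KRT38, which reached the limit in shCdGAP and not in shCon. No keratin reached it in shCon and not in shCdGAP. At least 1 read in any library was found for all 7 simple epithelial keratins, 11 of 17 hair shaft keratins, 9 of 21 stratified epithelial keratins and 1 of 9 root sheath keratins. Of these, 6, 7, 3 and 1 had enough reads to be tested.

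No read was counted in any library for 27 keratins. Among them were KRT5 and KRT14, the pair that marks basal cells of the prostate, whose transcripts were not detectable at this depth. The others of type I were KRT9, KRT13, KRT24, KRT25, KRT26, KRT27, KRT28, KRT31, KRT33A, KRT33B, KRT35 and KRT40, and the others of type II were KRT1, KRT2, KRT3, KRT4, KRT6C, KRT71, KRT72, KRT73, KRT74, KRT76, KRT77 and KRT82, with KRT222 besides. A count of 0 allows up to 3 reads, which is 0.0688 to 0.0907 CPM across the libraries and covers counting error only. A further 11 keratins had reads but too few to be tested. Of these, the stratified keratin KRT6B had the most, with 8, 13 and 22 reads in shCdGAP and 6, 5 and 6 in shCon. KRT79 had at most 5 reads in a library, KRT85 and KRT17 at most 4, KRT36 at most 2, and KRT12, KRT16, KRT23, KRT39, KRT78 and KRT84 at most 1.

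The promoter sequences of 4 keratins with large differences are shown first, to set the letters ahead of these genes beside their values. RefSeq promoters on GRCh38.p14 were found for 34 of the 55 keratins and for 8 of the 17 tested ones (KRT8, KRT10, KRT20, KRT32, KRT34, KRT37, KRT38 and KRT75). The 250 bases before the start are printed 5′ to 3′ on the gene's own strand, which is the minus strand for all 4 genes, with a TATAAA or CATAAA near the start in capitals. They lie at chr12:52434372-52434621 for KRT75, a keratin of the companion layer of the hair follicle, chr17:40885243-40885492 for KRT20, a keratin of intestinal and urothelial cells, and chr17:41424586-41424835 and chr17:41440984-41441233 for the hair keratins KRT37 and KRT38.
KRT75: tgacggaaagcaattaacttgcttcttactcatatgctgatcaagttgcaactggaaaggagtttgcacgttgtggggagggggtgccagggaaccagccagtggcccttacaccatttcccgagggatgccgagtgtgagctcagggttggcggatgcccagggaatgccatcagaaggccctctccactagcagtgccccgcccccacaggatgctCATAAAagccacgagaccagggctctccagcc
KRT20: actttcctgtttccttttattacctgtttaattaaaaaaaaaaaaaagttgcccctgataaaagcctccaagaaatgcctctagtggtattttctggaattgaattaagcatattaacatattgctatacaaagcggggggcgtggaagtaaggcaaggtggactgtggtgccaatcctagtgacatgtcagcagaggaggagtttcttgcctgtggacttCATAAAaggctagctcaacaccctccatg
KRT37: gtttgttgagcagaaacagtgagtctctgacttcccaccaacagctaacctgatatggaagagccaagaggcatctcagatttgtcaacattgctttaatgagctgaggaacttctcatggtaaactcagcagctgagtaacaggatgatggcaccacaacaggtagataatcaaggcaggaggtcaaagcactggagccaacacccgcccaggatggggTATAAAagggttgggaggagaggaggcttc
KRT38: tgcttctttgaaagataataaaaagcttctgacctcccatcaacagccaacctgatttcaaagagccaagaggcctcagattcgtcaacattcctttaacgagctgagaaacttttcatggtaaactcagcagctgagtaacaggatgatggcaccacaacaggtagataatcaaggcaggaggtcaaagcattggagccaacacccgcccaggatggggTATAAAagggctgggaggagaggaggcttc
In KRT37 and KRT38 the TATAAA began 30 bases before the start, and these promoters were identical at 225 aligned bases, mismatched at 22 and gapped at 6 (88.9% identical). KRT20 carried CATAAA beginning 29 bases before the start. On either strand, TATAAA was found in 4 of the 8 promoters of tested keratins and in 21 of the 38 promoters of the 34 keratins, among which KRT40 has 4 and KRT85 has 2, against 10.7% of 35116 promoters in the table. CATAAA, which was searched after these sequences had been seen and does not overlap TATAAA in the 4 shown, was found in 5 of the 8 and 19 of the 38, against 9.64% of all promoters. GGGCGG, the GC box, was found in 3 of the 8 and 4 of the 38 (42.6% of all promoters), and CCAAT in 4 of the 8 and 17 of the 38 (32.0% of all). TGANTCA, the AP-1 motif, was in none of the 38 promoters and in 6.57% of all promoters. These matches describe letters in a window and not sites in use.

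Across the 16439 genes tested by edgeR's quasi-likelihood test, 24.1% passed an adjusted p of 0.01 as higher in shCdGAP and 22.0% as lower. Together these were 46.2% of all tested genes. Among the 17 tested keratins, 10 rose and 1 fell. Adding a limit of 1 on the absolute log2 fold change left 9 higher and 1 lower, against 8.56% and 4.19% of all tested genes. The libraries of the 2 groups did not overlap for 11 keratins, against 67.1% of all genes. Of the 9 tested type I keratins, 8 rose, none fell and KRT18 did not pass. All 9 fold changes were positive, so 0 were lower at an unadjusted p of 0.05 too, and DESeq2 also called 0 lower. In bulk RNA, more cells with a keratin and more keratin RNA per cell cannot be told apart. However, KRT32, KRT34, KRT37 and KRT38, and KRT6A of type II, had under 10 reads in every shCon library and were kept by the filter through their shCdGAP reads, so a difference was built into their selection. Of the 5 type I keratins with at least 10 reads in every library, 4 rose. Of the 8 tested type II keratins, KRT75 and KRT6A rose, KRT80 fell and 5 did not pass, and of the 6 with at least 10 reads in every library, 1 rose (KRT75) and 1 fell. As a description, the median log2 fold change was 2.67 for the tested type I keratins and 0.33 for the type II keratins, against 0.01 for all tested genes. The type I median is the value of KRT34, one of the genes kept through shCdGAP reads. Over the keratins with at least 10 reads in every library the medians were 1.04 (type I) and 0.21 (type II).

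**Figure D1:**
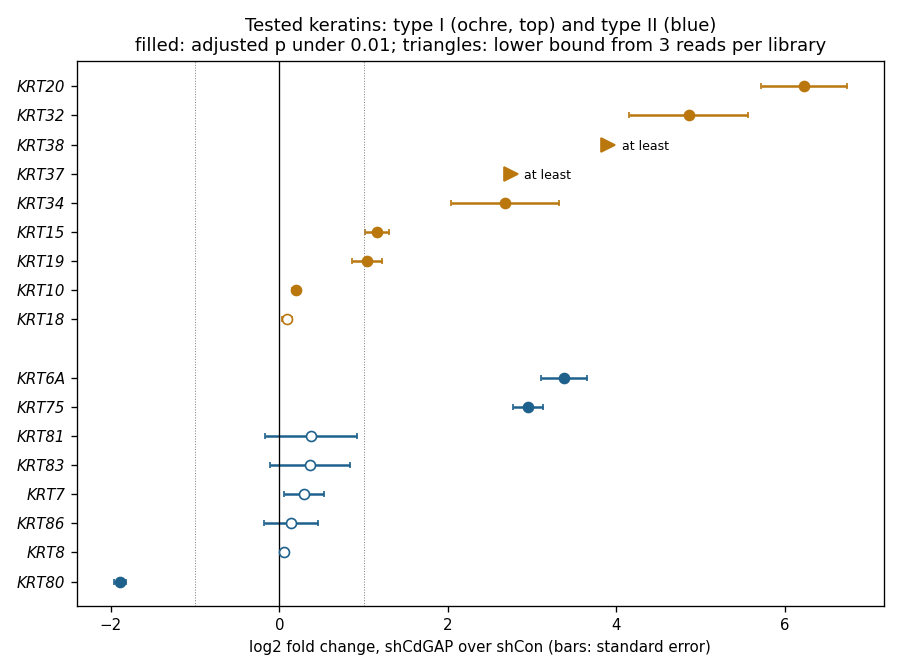
Log2 fold change (shCdGAP over shCon, horizontal axis) of the 17 tested keratins, type I and type II apart, with bars of 1 SE. Filled symbols passed an adjusted p of 0.01, dotted lines mark the fold limit and triangles mark lower bounds for KRT37 and KRT38, which had no read in shCon, and KRT32 rests on 1 shCon read. KRT20 lies farthest to the right of the keratins with reads in every library at 6.23, and KRT80 is the one keratin that fell, at -1.89.

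The simple epithelial pair had the smallest log2 fold changes of the tested keratins. KRT8 had 7460, 8828 and 6566 reads in shCdGAP and 7752, 7881 and 6088 in shCon, or 192.5 ± 9.44 and 185 ± 1.30 CPM (SD, n = 3 each). KRT18, its type I partner, had 10323, 13005 and 8858 reads in shCdGAP and 10561, 10870 and 8264 in shCon, or 270 ± 24.5 and 253 ± 3.91 CPM. The groups overlapped for both genes. Their log2 fold changes were 0.06 (SE 0.0409, adjusted p = 0.268) for KRT8 and 0.09 (SE 0.0596, adjusted p = 0.201) for KRT18 in edgeR. The ratio of KRT8 to KRT18 in RPKM, the CPM divided by the exon length in kilobases, was 0.464, 0.436 and 0.476 in shCdGAP and 0.471, 0.466 and 0.473 in shCon (two-sided exact permutation p = 0.6, where 0.1 is the smallest p that 3 against 3 libraries can give). KRT8 and KRT18 sit back to back on opposite strands and overlap by 525 bases. Strand-specific counting would keep reads of that overlap apart, and the methods do not name it. Of the 50-base windows of their transcripts, 39.0% and 35.3% also occur in other keratin genes or pseudogenes, mainly processed copies. Reads that align to several places were not counted.

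KRT19, a simple keratin without a tail domain (chr17:41523617-41528308, ENSG00000171345), was 2.05-fold higher in shCdGAP. It had 12068, 19638 and 10112 reads in shCdGAP and 6930, 7392 and 5572 in shCon. Every shCdGAP library was above every shCon library, and replicate 2 was the highest. The means were 347 ± 89.4 and 169.6 ± 5.05 CPM (SD, n = 3 each), with a log2 fold change of 1.04 (SE 0.179, adjusted p = 0.00367), and of 0.79 (adjusted p = 9.76e-27) without shCdGAP replicate 2. Its call was lost when any one shCon library was left out (adjusted p 0.0117 to 0.0139) and with no filter on low counts (adjusted p = 0.0294). The call held in 9 of 13 alternatives. KRT15, a keratin of basal and stem cell compartments of stratified epithelia that neighbours KRT19 on chromosome 17, showed a rise of similar size. It had 442, 684 and 387 reads in shCdGAP and 236, 231 and 194 in shCon, without overlap. Its log2 fold change was 1.16 (SE 0.144, adjusted p = 1.45e-04), and 0.96 without replicate 2.

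KRT20 (chr17:40875941-40885227, ENSG00000171431) had the largest fold difference of the keratins with reads in every library. It had 978, 2068 and 786 reads in shCdGAP and 11, 22 and 16 in shCon. All shCdGAP libraries lay far above all shCon libraries, with replicate 2 again the highest. Mean levels were 31.5 ± 13.9 CPM in shCdGAP and 0.422 ± 0.140 CPM in shCon (74.9-fold higher), with a log2 fold change of 6.23 (SE 0.510, adjusted p = 1.45e-04). Without replicate 2 it was 5.79. KRT20 shared no 50-base window with another keratin gene, so no near-identical keratin copy was found for it. KRT10, a keratin of suprabasal epidermis, differed least among those that passed, with 1065, 1162 and 887 reads in shCdGAP and 937, 951 and 785 in shCon. Its groups did not overlap in CPM (26.2 ± 0.436 and 22.9 ± 0.771), but the log2 fold change was 0.20 (SE 0.0494, adjusted p = 0.00717), and the call held in 6 of 13 alternatives, with adjusted p up to 0.0439.

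Of the 11 type I hair shaft keratins, 4 were tested, and all were low in both groups and higher in shCdGAP, through whose reads they entered the test. Of the other 7, KRT31, KRT33A, KRT33B, KRT35 and KRT40 had no read, KRT39 had 1 read in each group and KRT36 had 3 reads in shCdGAP and none in shCon. KRT38 had 52, 43 and 42 reads in shCdGAP and none in any shCon library, at least 15.0-fold higher against a limit of 3 reads in each shCon library (adjusted p = 2.40e-05). KRT37, its neighbour with the similar promoter, had 19, 30 and 14 reads in shCdGAP and none in shCon, at least 6.70-fold higher (adjusted p = 2.60e-04). KRT32, a keratin of the hair cuticle, had 11, 19 and 10 reads in shCdGAP and 0, 1 and 0 in shCon, a ratio of 39.6 with a 95% counting interval from 6.71 to 1602 (adjusted p = 3.54e-04). These 3 genes were separated between the groups, each at a level near or under 1 CPM. KRT34, a keratin of the hair cortex, had 11, 16 and 20 reads in shCdGAP and 3, 0 and 4 in shCon, a log2 fold change of 2.67 (SE 0.641, adjusted p = 0.00608), which passed in 8 of 12 alternatives. KRT37 and KRT38 shared 11.2% and 7.04% of their 50-base windows with other keratins, and KRT34 shared 12.2%, so a part of these few reads may be lost to multiple alignment. HOXC13 and FOXN1, transcription factors known for activating hair keratins and chosen here after their values were seen, had at most 2 reads and 1 read in any library.

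**Figure D2:**
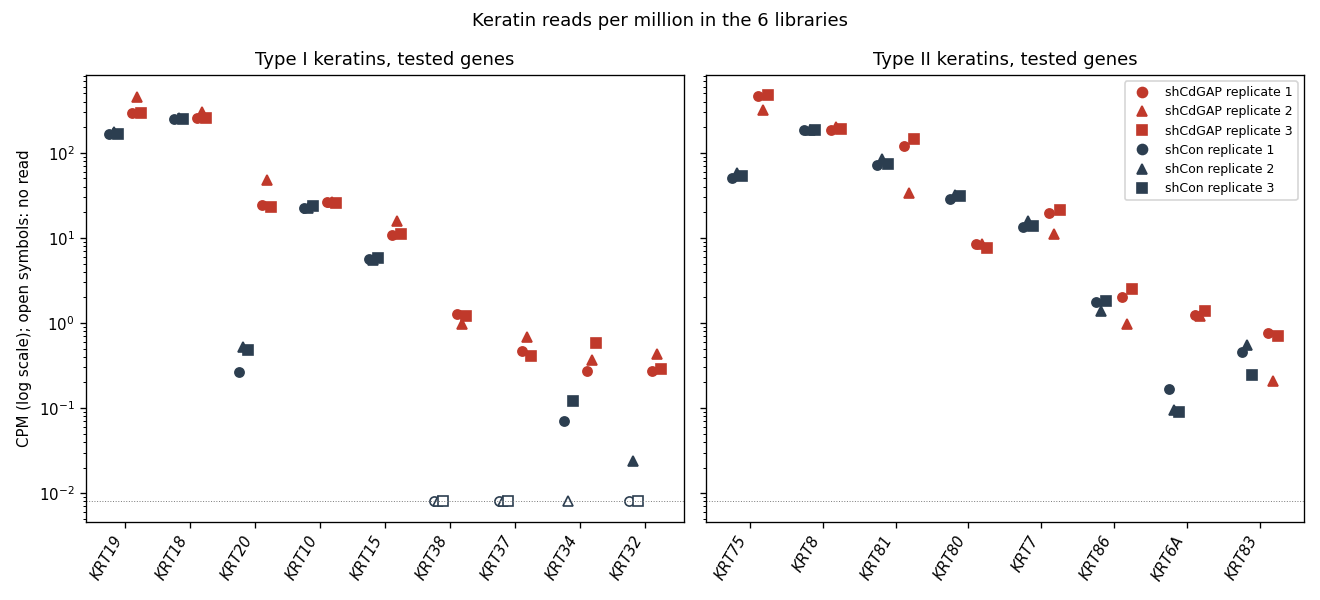
CPM of the 17 tested keratins in each of the 6 libraries on a logarithmic axis, type I and type II in separate panels, with each point a library and open symbols for no read. Libraries of the groups coincide for KRT8 and KRT18, while KRT20 lies between 22.85 and 47.45 CPM in shCdGAP and between 0.262 and 0.521 CPM in shCon.

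Among type II keratins, KRT75 (chr12:52424070-52434525, ENSG00000170454) rose the most in reads. It had 18647, 13734 and 16408 reads in shCdGAP and 2121, 2458 and 1774 in shCon. The lowest shCdGAP library was above the highest shCon library by a wide margin. Its level was 417 ± 88.9 CPM in shCdGAP and 54.1 ± 3.86 CPM in shCon (SD, n = 3 each), 7.71-fold higher, with a log2 fold change of 2.95 (SE 0.178, adjusted p = 3.23e-05), and 3.10 without replicate 2. Of its 50-base windows 0.0471% occurred in another keratin gene. A long noncoding RNA on the opposite strand of KRT75 (ENSG00000257500), singled out after its values were seen, had 16, 15 and 16 reads in shCdGAP and 5, 1 and 1 in shCon. KRT6A, a keratin of stratified epithelia known for its induction in wounded skin, had 50, 53 and 47 reads in shCdGAP and 7, 4 and 3 in shCon. It was 10.4-fold higher (log2 fold change 3.38, SE 0.270, adjusted p = 8.92e-06), a difference that its selection through shCdGAP reads already favoured. Of its windows 39.2% occurred in other keratin genes, so part of its reads may be lost to multiple alignment.

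KRT80, a type II keratin of differentiating epithelia, moved the other way. It had 347, 368 and 263 reads in shCdGAP and 1199, 1368 and 1018 in shCon. All shCdGAP libraries were below all shCon libraries, at 8.22 ± 0.494 and 30.6 ± 1.92 CPM. It fell by 1.89 on the log2 scale (SE 0.0722, adjusted p = 1.20e-07), a 3.72-fold lower level, with the 3 shCdGAP libraries close to each other. It was the one keratin that passed as lower.

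The 4 type II keratins at the start of the chromosome 12 cluster after KRT80, namely the simple keratin KRT7 and the hair keratins KRT81, KRT83 and KRT86, did not pass, and shCdGAP replicate 2 was the lowest shCdGAP library for each. KRT81, the most abundant of them, had 4933, 1477 and 4964 reads in shCdGAP and 3024, 3585 and 2437 in shCon, a log2 fold change of 0.37 (SE 0.547, adjusted p = 0.593). KRT7 had 799, 491 and 742 reads against 562, 661 and 456, with a log2 fold change of 0.29 (SE 0.237, adjusted p = 0.336). In CPM, replicate 2 lay below every shCon library in both genes and the other shCdGAP libraries lay above them, so the groups overlapped. KRT86 had 82, 42 and 87 reads against 74, 58 and 60 (log2 fold change 0.14, adjusted p = 0.727), and KRT83 had 31, 9 and 24 against 19, 23 and 8 (log2 fold change 0.36, adjusted p = 0.539). KRT81 and KRT86 shared 44.6% and 36.4% of their windows with other keratin genes or pseudogenes, so part of their reads may be lost to multiple alignment. Without replicate 2, KRT7 rose by 0.52 on the log2 scale (adjusted p = 1.11e-08), while KRT81 (0.78, adjusted p = 0.0128), KRT83 (0.77, adjusted p = 0.0295) and KRT86 (0.45, adjusted p = 0.0243) still missed the threshold. In that fit 10035 of 16727 genes passed in either direction.

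Replicate 2 differed from its sisters in opposite directions for different keratins. Against the mean CPM of replicates 1 and 3, it held 2.02 times the level of KRT20, 1.57 of KRT37, 1.55 of KRT32, 1.52 of KRT19 and 1.42 of KRT15. It held 0.255 times the level of KRT81, 0.283 of KRT83, 0.424 of KRT86, 0.546 of KRT7 and 0.673 of KRT75. KRT10, KRT80, KRT8 and KRT18 lay between 1.03 and 1.17. By the 1.5-fold measure used for all genes, KRT19 and KRT20 counted as high and KRT7, KRT81, KRT83 and KRT86 as low. These are 6 of the 17 keratins with enough reads, against 3.25% high and 1.83% low among all genes with enough reads. Keratins also stood apart in other libraries by this measure. KRT34 was high in shCdGAP replicate 3, KRT20 low in shCon replicate 1 and KRT83 low in shCon replicate 3. The pseudogene KRT87P, which is no member, had 85, 33 and 84 reads in shCdGAP. KRT87P lies within the span of KRT86 and overlaps exons of KRT7 by 32 bases, on the strand opposite to both. Counts in pairs with replicate 2 differed by 29.98 and 36.89 chi-square per degree of freedom, against 2.76 to 7.62 for all other pairs of one group.

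**Figure D3:**
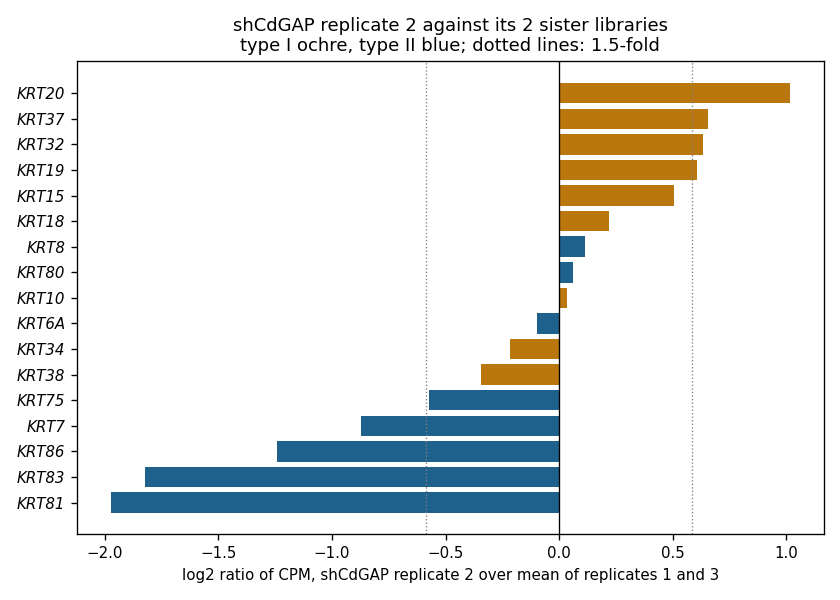
Log2 ratio of the CPM of each tested keratin in shCdGAP replicate 2 to the mean of shCdGAP replicates 1 and 3 (bars, type I in ochre and type II in blue, dotted lines at 1.5-fold). KRT20 stands highest at 1.02 and KRT81 lowest at -1.97.

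Summed over all members, keratins took 0.142%, 0.143% and 0.148% of counted reads in shCdGAP and 0.0789%, 0.0830% and 0.0804% in shCon, 1.79-fold more in shCdGAP (two-sided exact permutation p = 0.1, the smallest possible). Of the 0.0635 percentage points by which the groups differed, 0.0267 remained when KRT75 was left out. Per length, type I keratins summed to 235, 327 and 233 RPKM in shCdGAP and 160, 167 and 162 in shCon, and type II keratins to 306, 199 and 327 RPKM against 107, 119 and 110 (exact permutation p = 0.1 for each). Both sums were separated between the groups, and the group means differed by 1.63-fold and 2.49-fold. The ratio of type I to type II was 0.766, 1.64 and 0.713 in shCdGAP and 1.4998, 1.41 and 1.48 in shCon. Replicate 2 lay above all shCon libraries and its sisters below them (difference of the log2 ratio -0.60, exact permutation p = 0.4). Without KRT75 this difference was 0.58, in the other direction (exact permutation p = 0.1).

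The make-up of each type differed between the groups as well. KRT75 made up 64.6%, 68.0% and 62.7% of type II RPKM in shCdGAP and 20.3%, 21.1% and 21.1% in shCon (exact permutation p = 0.1). KRT8 made up 11.99%, 20.3% and 11.6% against 34.5%, 31.4% and 33.5%, and KRT81 20.6%, 8.81% and 22.9% against 34.9%, 37.1% and 34.9%. Thus KRT75 led type II in every shCdGAP library, and KRT8 and KRT81 were ahead of it in every shCon library. In type I, KRT19 took 54.3%, 58.9% and 53.9% in shCdGAP against 44.1%, 45.0% and 44.5% in shCon, KRT18 took 33.7%, 28.3% and 34.3% against 48.8%, 48.0% and 47.9%, and KRT20 took 5.57%, 7.85% and 5.31% against 0.0885%, 0.169% and 0.162%. The KRT19 to KRT18 ratio in RPKM was 1.61, 2.08 and 1.57 in shCdGAP and 0.904, 0.937 and 0.929 in shCon. These shares use the exon length of the count tables, which joins the exons of all isoforms and is long for KRT8. With the length of the canonical GENCODE v44 transcript, KRT75 made up a mean of 52.3% of type II RPKM in shCdGAP and 13.4% in shCon, and KRT8 30.4% and 55.7%.

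In mean RPKM on the table's lengths, the order in shCdGAP was KRT75 (179.6), KRT19 (149), KRT18 (84.0), KRT81 (51.8), KRT8 (38.4), KRT20 (17.1) and KRT10 (12.4). In shCon it was KRT18 (78.6), KRT19 (72.6), KRT81 (39.9), KRT8 (36.95), KRT75 (23.3) and KRT10 (10.8). KRT81 and KRT8 change places in both groups when the canonical length is used (51.8 and 107.9 RPKM in shCdGAP, 39.9 and 103.8 RPKM in shCon), so their order depends on the length taken. The same holds for KRT75 and KRT19 in shCdGAP, which were at 192 and 249.9 RPKM on the canonical length.

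**Figure D4:**
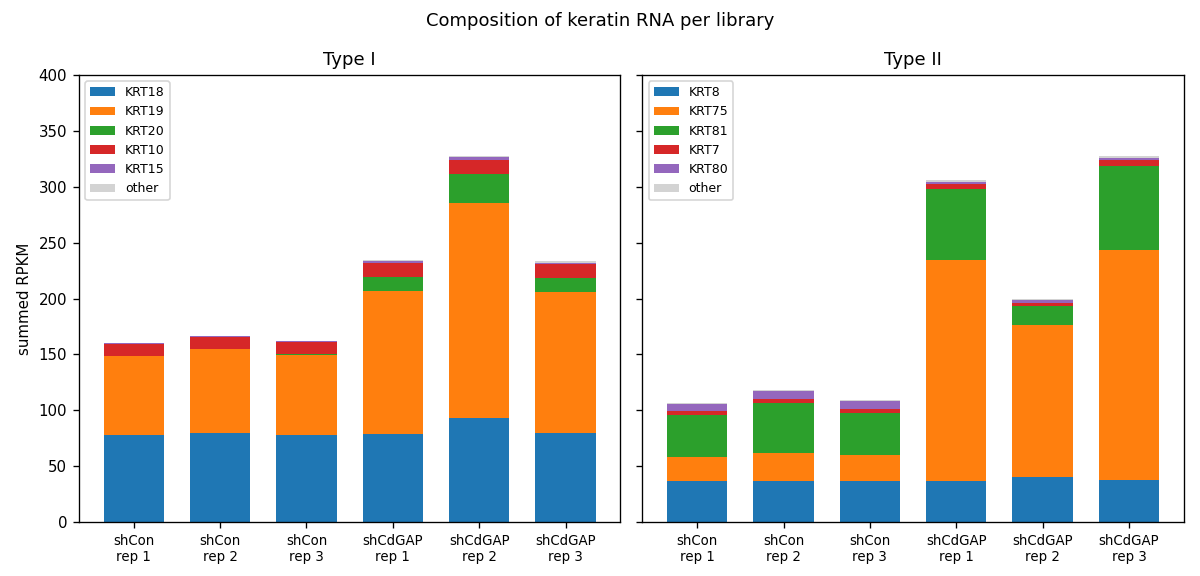
Summed RPKM of type I and type II keratins (bar height) in each of the 6 libraries, stacked by the most abundant members. KRT75 takes between 62.7% and 68.0% of type II in shCdGAP and between 20.3% and 21.1% in shCon.

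The genes around the keratin clusters were compared next, to see whether neighbours differed in the same direction. Within 2 Mb, 57 other tested genes on chromosome 12 had a median log2 fold change of 0.05, with 20 higher and 14 lower, and 97 on chromosome 17 had a median of -0.12, with 14 higher and 28 lower. These are 35.1% higher and 24.6% lower on chromosome 12, and 14.4% and 28.9% on chromosome 17, against 24.1% and 22.0% of all tested genes. Inside the clusters, KRTAP2-3, a hair keratin-associated gene, had a log2 fold change of 2.77 and KRT10-AS1, antisense to KRT10, one of -0.26, named after their values were seen.

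**Figure D5:**
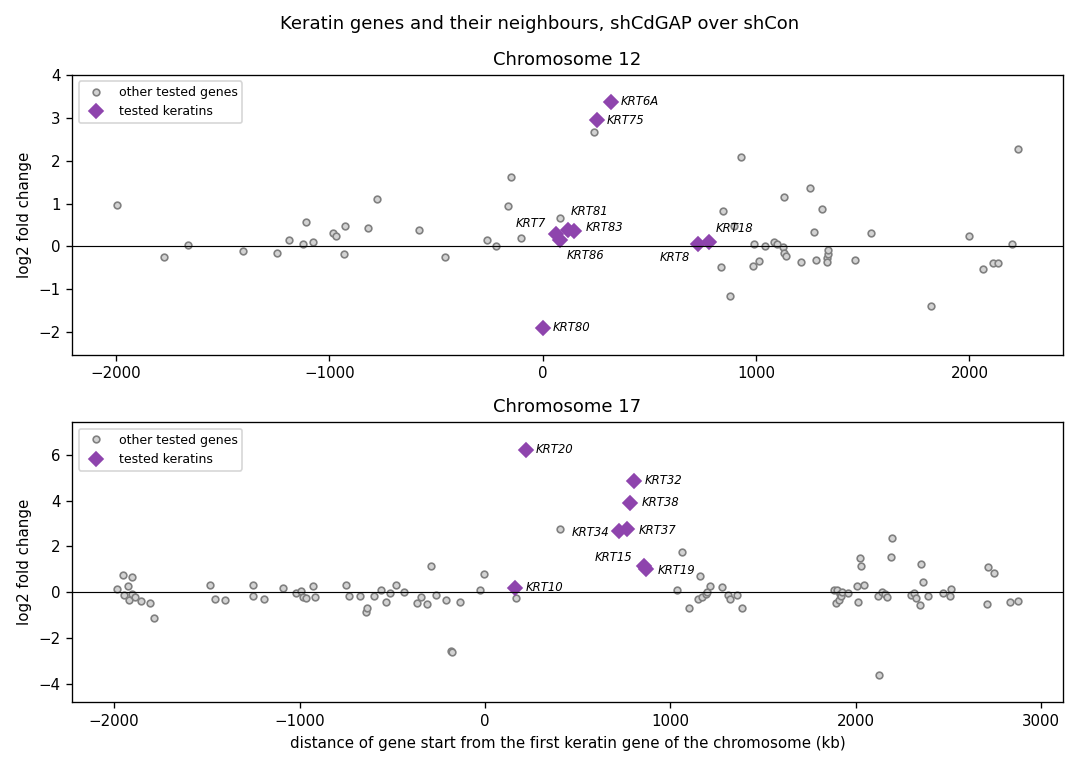
Log2 fold change of tested keratins (diamonds) and of other tested genes (circles) by distance in kilobases from the first keratin gene on chromosomes 12 and 17. KRT37 and KRT38 are drawn at their lower bounds and KRT32 rests on 1 shCon read, and the other genes have medians of 0.05 and -0.12.

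Genes related to keratins by function were counted from lists, and each count stands against 24.1% higher and 22.0% lower among all tested genes. Of the 15 other intermediate filament genes, 9 were tested, 5 rose and 2 fell, with a median log2 fold change of 0.32. VIM, the filament of mesenchymal cells and of many cultured lines, was at 1148 ± 85.2 CPM in shCdGAP and 627 ± 16.5 CPM in shCon (log2 fold change 0.87, adjusted p = 1.85e-06), and PRPH (1.45), NEFL (0.78), SYNM (0.70) and NES (0.32), filaments of nerve, muscle and progenitor cells, also rose. Of the 14 proteins that link keratin filaments to junctions and scaffolds, 13 were tested, 3 rose, 2 fell and 8 did not pass, shares no higher than those of all genes. PPL, periplakin, rose by 0.96 on the log2 scale, PLEC, plectin, by 0.55 and TCHP, trichoplein, by 0.41, while JUP, plakoglobin, fell by 0.69 and EVPL, envoplakin, fell by 0.52.

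Of 18 transcription factors known to act on keratin genes, 11 were tested, 3 rose and 4 fell, against the same 24.1% and 22.0%. TFAP2C had 132, 51 and 86 reads in shCdGAP and 1, 3 and 0 in shCon (adjusted p = 1.57e-04), and TP63, the basal cell factor, rose by 1.04 on the log2 scale. KLF5 fell by 1.73, ELF3 fell by 0.99 and TFAP2A fell by 0.41. Of 22 genes of the cornified envelope, 5 were tested and 3 rose (24.1% of all tested genes did), namely SBSN, with 92, 111 and 70 reads in shCdGAP and 1, 0 and 0 in shCon, CSTA (log2 fold change 2.12) and CNFN (0.86). TFAP2C, SBSN and CSTA had under 10 reads in every shCon library and entered the test through their shCdGAP reads. Of the 4 epithelial markers, KRT8 and KRT18 among them, 1 passed, as higher, and the median log2 fold change was 0.08. This was EPCAM, an epithelial surface marker, at 211 ± 10.6 CPM in shCdGAP and 83.0 ± 1.35 CPM in shCon (log2 fold change 1.35, adjusted p = 5.02e-08). CDH1, E-cadherin, was at 35.1 ± 13.4 CPM in shCdGAP and 58.2 ± 1.63 CPM in shCon (log2 fold change -0.72, adjusted p = 0.0636) and did not pass. It had 1200, 2199 and 872 reads in shCdGAP, with replicate 2 the highest, and 2373, 2465 and 1976 in shCon. In CPM every shCdGAP library was below every shCon library, so not passing does not show equal levels. The paper reported lower E-cadherin mRNA and protein in the depleted cells. Of the 3 endothelial markers, 1 was tested and did not pass.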

How the data were processed

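Raw counts of reads per gene were deposited by the authors, one table per sample, from STAR 2.5.1b alignments to GRCh38 counted with featureCounts on Ensembl 77. The table headers name featureCounts 1.6.0 and the submitters' notes 1.4.6. Symbols matched 56105 of 64253 genes (87.3%). Library totals ranged from 33182796 to 43154039 counts. Counts were tested with edgeR 4.0.16 in R 4.3.3 (filterByExpr, TMM, robust quasi-likelihood F test, Benjamini-Hochberg over 16439 genes), with groups taken from sample titles and no batch in the labels. Standard errors are the absolute log2 fold change over the square root of F. RPKM uses exon lengths of the count tables. Each tested keratin was named, keratins with few reads were given by their counts, and of each related list at most 5 genes that passed. Members and lists were chosen with earlier results of these data known. The methods name 3 independent samples per group. Alternatives used DESeq2 1.42.0, limma 3.58.1, other scalings and filters, and each library left out. The edgeR test was checked on simulated counts. Tables were prepared with Python 3.11.15 and SciPy 1.17.1.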

Additional observations from a re-analysis of the deposited data

How the results depend on the processing

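The number of type I keratins passing as higher (8) was 4 when at least 10 reads in every library were required, since the low hair keratins then are not tested, and 5 to 8 when 1 library was left out. It was 5 without each shCon library in turn. The type II number (2) was 1 under the same read minimum, which leaves out KRT6A, and 2 to 3 with 1 library left out. With the fold limit, the type I number (7) was 3 under the read minimum and 4 when edgeR's glmTreat tested against a log2 fold change of 1. It was 5 to 7 with 1 library left out, and 5 without shCdGAP replicate 2 and without each shCon library in turn. The type II number with the fold limit (2) was 1 under the read minimum and stayed at 2 with 1 library left out. The number detected was 20 in shCdGAP and 16 in shCon with a limit of 5 reads, and 18 and 12 with a limit of 30 reads. Which keratins made the difference depended on the limit. With 5 reads, KRT34 (7 shCon reads) was detected in both groups. With 30 reads, KRT6A (14 shCon reads) and KRT6B (17 shCon reads) were not detected in shCon.

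The type I to type II difference (-0.60) ranged from -0.98 to -0.38 with 1 library left out. It was 0.58 without KRT75 and -0.93 without KRT19 (exact permutation p = 0.1 for each, the smallest possible), -0.37 with canonical lengths, -0.41 without division by length and -0.56 without KRT8 and KRT18 (p = 0.4 for each by the same permutation test). The difference in keratin share (0.0635 percentage points) was 0.0602 without KRT8 and KRT18, 0.0267 without KRT75 and 0.0617 to 0.0646 with 1 library left out. Leaving out KRT75 or KRT19 and using canonical lengths were alternatives chosen after seeing the data. The neighbourhood medians were 0.0734 on chromosome 12 and -0.0398 on chromosome 17 in a 5 Mb window. The log2 fold change of KRT86 (0.14) ranged from -0.16 without shCdGAP replicate 3 to 0.45 without shCdGAP replicate 2. The cause of these changes was not tested apart from the read minimum.

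The deviations of samples with the same replicate number correlated at 0.031, 0.05 and 0.047, and those of samples with different numbers at -0.074 to 0.028. The correlations of same-number samples were the largest but small, and the main fit used no pairing. With the replicate number as a block, 7 type I keratins passed as higher, as KRT10 did not (adjusted p = 0.0190), and 2 type II keratins passed as higher and 1 as lower.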
